A study of Mus musculus with 8 samples.

Results

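The circadian clock genes Per1, Per2, Per3, Arntl (Bmal1), Clock, Cry1, Cry2, Dbp, Nr1d2 and Tef were described in the visual cortex of mice with 1 eye removed. Every probe set annotated to a single symbol among these names was taken, which gave 10 of the 8251 named genes on the array and 12 of its 12422 probe sets other than controls. Of these probe sets, 10 passed a filter on dim probe sets, 1 for each gene. The other 2 were further probe sets of Cry1.

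All arrays came from wild-type C57Bl6 mice that had lost 1 eye at postnatal day 20 and were killed 4 days later, at postnatal day 24. The deprived group held 4 arrays of the visual cortex opposite the removed eye, and the non-deprived group 4 arrays of the visual cortex on the same side as it. The labels' protocols name 4 operated mice and the series design mentions pooling, so an array may hold 1 mouse or a pool and the p-values measure only the spread between these arrays, which may be technical. No unoperated mice were among the samples, so lower in deprived and higher in non-deprived cortex cannot be told apart. No source used here gives the time of day of collection or the light schedule.

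The mammalian clock is a feedback loop of transcription. CLOCK and BMAL1 (the product of Arntl) bind E-boxes and switch on the Per and Cry genes, whose proteins then block CLOCK and BMAL1. A further loop runs through nuclear receptors such as NR1D2 (REV-ERB beta), which represses Arntl, and an output loop through the PAR bZIP factors DBP and TEF, which bind D-boxes. Per1 is also known as a gene that light, cAMP and calcium signals induce within minutes through CREB, so it sits at the meeting point of the clock and of neuronal activity.

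The upstream sequences are shown for Per1, because the comparison turns on it, and for Per3 and Arntl, because these had the largest differences of the other members. They are the 250 bases before a transcription start in RefSeq, build GRCm38.p6, read 5′ to 3′ on the gene's strand. Per1 has 2 starts in this table, with the windows before them at chr11:69098699-69098948 and chr11:69099902-69100151 (plus strand). The Per3 window lies at chr4:151044666-151044915 (minus strand) and the first of the Arntl windows at chr7:113207215-113207464 (plus strand). Capitals mark the motifs that were searched on both strands.
Per1, first start: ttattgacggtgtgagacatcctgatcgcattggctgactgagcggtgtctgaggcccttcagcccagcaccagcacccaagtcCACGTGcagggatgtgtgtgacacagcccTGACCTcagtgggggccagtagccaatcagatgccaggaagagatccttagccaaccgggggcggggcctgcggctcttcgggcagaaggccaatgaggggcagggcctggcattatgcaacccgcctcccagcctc
Per1, second start: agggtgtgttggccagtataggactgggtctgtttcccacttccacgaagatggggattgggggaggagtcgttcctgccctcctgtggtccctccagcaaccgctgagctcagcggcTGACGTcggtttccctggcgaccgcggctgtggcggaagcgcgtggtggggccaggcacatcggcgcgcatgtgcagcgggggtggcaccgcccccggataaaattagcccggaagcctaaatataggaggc
Per3: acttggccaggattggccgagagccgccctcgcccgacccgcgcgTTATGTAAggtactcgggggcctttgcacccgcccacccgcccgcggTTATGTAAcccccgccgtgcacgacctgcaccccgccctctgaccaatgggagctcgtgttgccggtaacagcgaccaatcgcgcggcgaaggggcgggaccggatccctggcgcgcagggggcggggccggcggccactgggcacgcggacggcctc
Arntl, first start: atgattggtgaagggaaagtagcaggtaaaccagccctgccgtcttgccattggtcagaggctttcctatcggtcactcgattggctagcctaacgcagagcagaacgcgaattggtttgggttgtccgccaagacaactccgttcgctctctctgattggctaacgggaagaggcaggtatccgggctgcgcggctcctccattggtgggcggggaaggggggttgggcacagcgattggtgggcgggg

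Of the 10 genes, 9 had at least 1 start in the table, 14 starts in all, and Per2 had none. The first Per1 window holds an E-box, CACGTG, 166 bases before the start, and the letters TGACCT, which are AGGTCA, the core of many nuclear receptor sites, on the other strand. The second Per1 window holds TGACGT, the core of the cAMP response element (CRE), 132 bases before the start. The CRE core is in 6.47% of the 32851 upstream windows of all genes and in 1 of the 14 windows of the clock genes. The full palindrome TGACGTCA, which contains the core, is in 1.55% of all windows and in none of the 14. E-boxes were found in 4 windows, those of Per1, Cry1 and both starts of Tef, against 6.02% of all windows. The variant CACGTT was found in those of Cry1 and Cry2, against 3.85%. The Per3 window holds the D-box TTATGTAA at 2 places, 205 and 158 bases before the start, and 0.819% of all windows hold it at least once. AGGTCA was found for Per1, Clock and Nr1d2 and is in 14.0% of all windows. None of these letters was found in the windows of Arntl or Dbp. These matches describe the sequence only. Which Per1 start was in use was not analysed here.

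Array quality was similar in range across samples. The median signal of an array ran from 183 to 209, and pairs of arrays correlated at 0.948 to 0.975 in log2 signal. The dimmest signals differed, with a 10th percentile of 13.5 ± 0.718 among non-deprived and 17.2 ± 2.68 among deprived arrays (SD, n = 4 each, exact two-sided permutation p = 0.0286, the smallest that 4 against 4 allow). As a measure of RNA integrity, the actin control's ratio of 3′ over 5′ signal was 1.39 ± 0.179 in the former and 1.64 ± 0.239 in the latter, and that of Gapdh 0.898 ± 0.0543 and 0.842 ± 0.0345 (SD, n = 4 each). Markers of the tissue were present, with 5 of 5 neuronal and 4 of 4 cortical markers on the array past the filter. Their summed signals were 22348 to 30249 and 9801 to 14049 in non-deprived arrays, and 21511 to 27884 and 10615 to 12904 in deprived arrays. Some markers of other cells and regions leaned the same way as the clock genes. Of the 8 endothelial and meningeal markers on the array, 7 lay above 0, with a median difference of 0.12 and sums of 3555 to 4435 against 3602 to 4484. Of the 5 thalamus markers, 4 lay above 0, with a median of 0.11 and sums of 1774 to 2089 against 1856 to 2296. Hippocampal markers had 1 of 4 below 0 (median 0.07), but their sums were lower in range, 1197 to 1467 against 1052 to 1300 in deprived arrays. Other lists did not lean this way, with 4 of 7 astrocyte (median -0.06), 4 of 6 oligodendrocyte (-0.03) and 4 of 8 microglial markers (0.04) below 0. Striatum and blood markers had 1 of 2 each below 0 (-0.07 and -0.04). The neuronal and cortical markers had 3 of 5 and 3 of 4 below 0 (median -0.04 each). These counts include Gbx2 (thalamus), Prox1 and Dsp (hippocampus), Cnp (oligodendrocytes) and Aif1 (microglia), which did not pass the filter. None of the 4 choroid plexus markers on the array passed the filter. Of these dim markers 1 lay below 0, with a median of 0.15 and sums of 123 to 218 against 163 to 248. The part of any of these cells or regions in the differences of the clock genes was not tested. In such whole-tissue RNA, fewer cells of a type and less RNA per cell cannot be told apart.

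**Figure D1:**
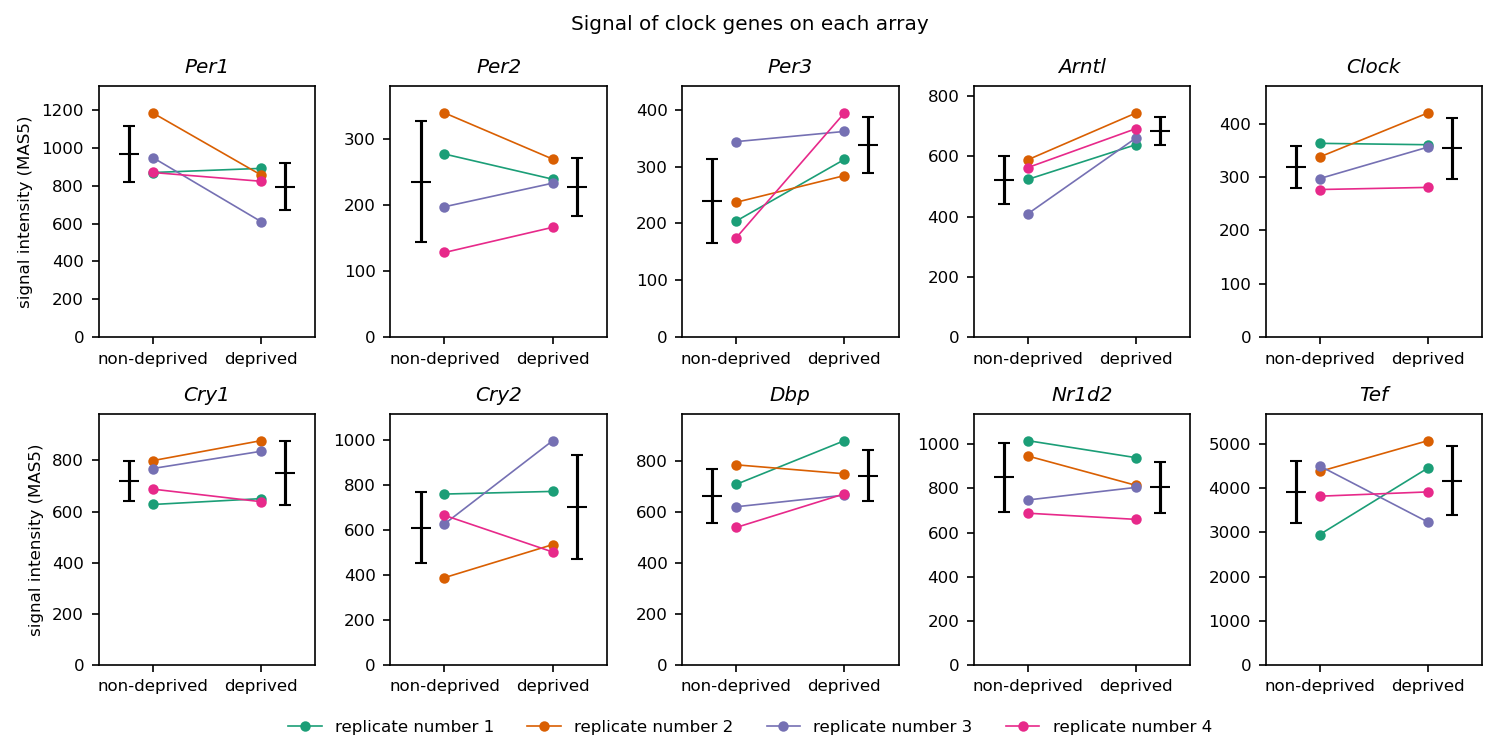
Signal intensity (MAS5 units, linear axis from 0) of the 10 clock genes past the filter on each array, with coloured lines joining arrays of the same replicate number and black bars giving mean ± SD of the 4 arrays of a group. The 4 deprived arrays lie above all 4 non-deprived arrays for Arntl (639 to 744 against 409 to 589), and the groups overlap for the other 9 genes.

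Differences are deprived minus non-deprived on the scale log2(signal + 15.2), which understates the change of dim genes, and were tested with limma, a linear model that shares the spread between probe sets, with Benjamini-Hochberg adjustment over the 7453 probe sets past the filter. No clock gene passed the threshold of 0.05, and neither did any other probe set, so that 0% were called in either direction. Across all probe sets, 199 had an unadjusted p under 0.05 in limma, 2.67% of those tested, and this number ran from 133 when non-deprived replicate 4 was left out to 429 when deprived replicate 4 was (311 with deprived replicate 1 left out). Among the clock genes there were 2 of 10, Arntl and Per3, both higher in deprived cortex. Per1 lay lowest of the 10, and Nr1d2 was the other gene below 0. In all, 2 of 10 clock genes lay below 0, against 45.1% of all probe sets, and their median difference was 0.12, against 0.02 over all probe sets. This lean was lost with the actin ratio of each array in the fit, where 5 of 10 lay below 0 and the median was 0.00983. There were also 5 of 10 below 0 when deprived replicate 2 was left out (median 0.02) or deprived replicate 3 was (median 0.07), and 1 of 10 when deprived replicate 4 was (median 0.18). With the Gapdh ratio in the fit, 3 of 10 lay below 0 and the median was 0.10.

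Per1 encodes a PERIOD protein of the repressor arm. Its signal was 870 (869.7), 1185, 949 and 870 (869.9) in non-deprived replicates 1 to 4, and 892, 857, 611 and 823 in deprived replicates 1 to 4. The highest array was a non-deprived and the lowest a deprived one, but the groups overlapped, since deprived replicate 1 lay above 2 of the non-deprived arrays. Group means were 968 ± 149 and 796 ± 126 (SD, n = 4 each). The log2 difference was -0.28 ± 0.16 (SE), with a 95% interval of -0.64 to 0.08, and it did not pass (limma unadjusted p = 0.113, adjusted p = 0.995, exact two-sided permutation p of this gene alone 0.114). Of all probe sets, 7.78% had a lower difference. The deprived array was lower in 3 of the 4 same-numbered pairs, by -0.46, -0.62 and -0.08 in pairs 2, 3 and 4, and pair 1 had 0.04. An exact sign-flip test over the 4 pairs gave p = 0.25 for Per1. Limma with the replicate number as a block gave an unadjusted p of 0.0667. The size of the difference rested on pairs 2 and 3, being -0.18 when non-deprived replicate 2 was left out and -0.16 when deprived replicate 3 was. It was -0.13 with the Gapdh ratio of each array in the fit and -0.26 with the actin ratio.

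The other Period genes lay at or above 0. Per3, a Period gene that is dispensable for the core rhythm, had signals of 204, 237, 344 and 175 in non-deprived and 313, 284, 362 and 394 in deprived replicates 1 to 4. Non-deprived replicate 3 lay within the deprived range, and the other 3 non-deprived arrays lay below all deprived ones. Means were 240.1 ± 73.8 and 338 ± 49.3 (SD, n = 4 each). The log2 difference was 0.50 ± 0.22 (SE), with a 95% interval of 0.03 to 0.97 (limma unadjusted p = 0.0386, adjusted p = 0.995, exact permutation p = 0.0857). It was higher in the deprived array of 4 of 4 pairs, by 0.07 to 1.11, which held for 8.95% of all probe sets. Within pairs, the exact sign-flip p of Per3 was 0.125, the smallest possible. Limma with the replicate block gave an unadjusted p of 0.0284 and an adjusted p of 0.703. Leaving out non-deprived replicate 4 gave 0.37, and leaving out non-deprived replicate 3 gave 0.68.

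Per2, a Period gene needed for a sustained rhythm and, like Per1, inducible by light, showed no common direction. Its signals were 278, 340, 198 and 128 in non-deprived and 240 (239.7), 270 (270.2), 234 and 167 in deprived replicates 1 to 4. The deprived array was lower in pairs 1 and 2 and higher in pairs 3 and 4. The log2 difference was 0.01 ± 0.28 (SE), with an interval of -0.59 to 0.61, and its sign turned with the scaling of the arrays (-0.03 after quantile and -0.06 after cyclic loess scaling).

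Of the activators, Arntl was the member whose groups did not overlap. Its product BMAL1 is the partner of CLOCK, and loss of this gene alone stops the clock. Arntl signals were 523, 589, 409 and 563 in non-deprived and 639, 744, 661 and 692 in deprived replicates 1 to 4. All 4 deprived arrays were above all 4 non-deprived arrays, which was so for 1.23% of all probe sets. Means were 521 ± 79.1 and 684 ± 45.5 (SD, n = 4 each), a fold of 1.31 on the pseudocount scale. The log2 difference was 0.39 ± 0.15 (SE), with a 95% interval of 0.06 to 0.72. Its unadjusted p in limma was 0.0239 and its exact permutation p 0.0286, the smallest possible for 4 against 4. Both ignore the pairs. Arntl did not pass over all probe sets (limma adjusted p = 0.995), where it was number 88 in order of p. Within pairs, its exact sign-flip p was 0.125, the smallest that 4 pairs allow. Limma with the replicate block gave an unadjusted p of 0.0111 and an adjusted p of 0.703. All 4 pairs were higher, by 0.28 to 0.67. Leaving out 1 array gave 0.29 to 0.45, the lowest without non-deprived replicate 3, whose signal was the lowest of all.

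Clock, the binding partner of BMAL1, had signals of 363, 338, 297 and 277 in non-deprived and 361, 420.1, 356 and 281 in deprived replicates 1 to 4. The groups overlapped over most of their range. Its log2 difference was 0.14 ± 0.17 (SE), with an interval of -0.24 to 0.52, and it was -0.08 with the actin ratio in the fit and 0.08 with the Gapdh ratio. Leaving out 1 array took it from 0.06 (deprived replicate 2) to 0.24 (deprived replicate 4), with 0.08 when non-deprived replicate 4 was left out.

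The Cryptochrome genes encode the repressors that act with the PERIOD proteins. Cry1 signals were 628, 799, 768 and 688 in non-deprived and 651, 877, 836 and 639 in deprived replicates 1 to 4, and the log2 difference was 0.05 ± 0.16 (SE), with an interval of -0.29 to 0.39. This probe set carries the manufacturer's mark for probes shared with related sequences, so its signal may not be of Cry1 alone. The other 2 Cry1 probe sets had signals of 0.4 to 30.3 and 0.5 to 17.6 over all arrays, far below the filter signal of 110 (109.96), and no level of the gene is read from them. Without the filter their differences were 0.28 and -0.49, in opposite directions.

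Cry2 varied widely between arrays of a group. Its signals were 760 (759.6), 388, 627 and 665 in non-deprived and 771, 535, 997 and 502 in deprived replicates 1 to 4. The pairs ran from -0.40 to 0.66, and the log2 difference was 0.18 ± 0.25 (SE), with an interval of -0.36 to 0.73. With the Gapdh ratio in the fit it was -0.12, and leaving out non-deprived replicate 2 or deprived replicate 3 brought it to -0.01 and -0.00137.

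The PAR bZIP output factors lay slightly above 0. Dbp, a strongly rhythmic target of CLOCK and BMAL1, had signals of 709, 785, 621 and 540 (539.6) in non-deprived and 880.2, 750.2, 666 and 672 in deprived replicates 1 to 4. Its log2 difference was 0.16 ± 0.16 (SE), with an interval of -0.19 to 0.51, higher in 3 of 4 pairs. Leaving out 1 array took it to 0.07 (non-deprived replicate 4), 0.08 (deprived replicate 1) or 0.25 (non-deprived replicate 2), and the actin and Gapdh ratios in the fit gave 0.06 and 0.26. Tef had 2951, 4378, 4504 and 3819 in non-deprived and 4456, 5076, 3234 and 3916 in deprived replicates 1 to 4. Its pairs ran from -0.48 to 0.59, and its log2 difference was 0.09 ± 0.18 (SE), with an interval of -0.29 to 0.47. Leaving out non-deprived replicate 1 turned it to -0.04, and leaving out deprived replicate 2 to -0.01.

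Nr1d2, the REV-ERB repressor, had signals of 1016, 947, 748 and 688 in non-deprived and 939, 814, 805 and 660 (659.6) in deprived replicates 1 to 4. Its log2 difference was -0.07 ± 0.17 (SE), with an interval of -0.44 to 0.30, lower in 3 of 4 pairs. It was 0.02 without non-deprived replicate 1 or deprived replicate 4, and 0.00261 with array weights.

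**Figure D2:**
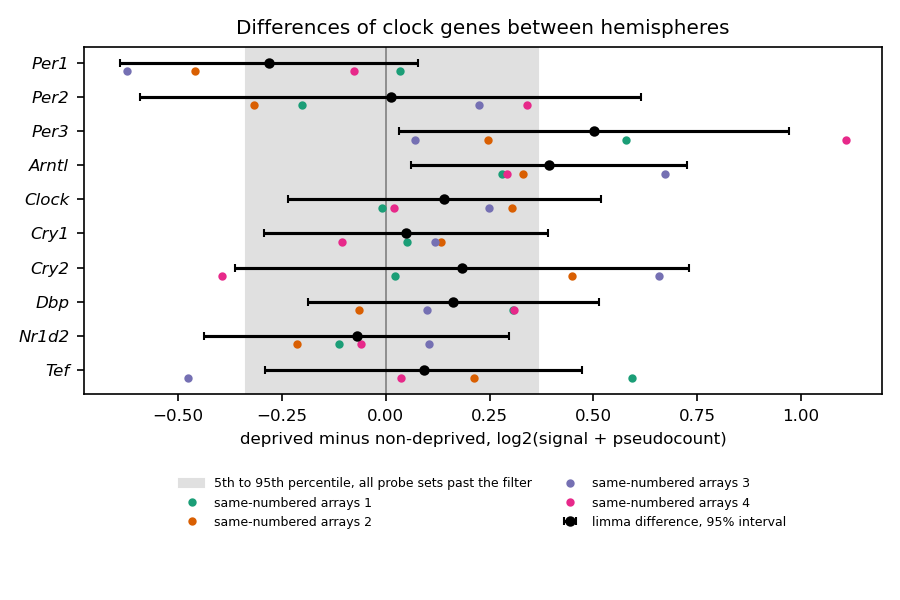
Deprived minus non-deprived difference of each clock gene in log2(signal + pseudocount), with the limma estimate and 95% interval in black, the 4 same-numbered pairs as coloured points, and the 5th to 95th percentile of all probe sets past the filter in grey (-0.34 to 0.37). Only the Arntl (0.06 to 0.72) and Per3 (0.03 to 0.97) intervals lie wholly on 1 side of 0, and neither gene passed after adjustment. The intervals are from the fit without the replicate block.

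Per1 was then set against the other 9 members within each pair. In pairs 2 and 3 all 9 had a higher difference than Per1, in pair 4 there were 7, and in pair 1 there were 5. The median difference of the 9 was 0.05, 0.21, 0.12 and 0.04 in pairs 1 to 4. The Per1 difference minus that median was -0.67 and -0.74 in pairs 2 and 3, and -0.02 and -0.11 in pairs 1 and 4. From the fit over all arrays, the Per1 difference minus the median of the others was -0.42. It stayed below 0 under all 18 alternative settings, from -0.53 to -0.25. The replicate block, no filter and no trend could not change it, so its sign was not tested by them. The members were proposed with earlier results known, so no p is given for this contrast. The separation was carried by the same pairs as the Per1 difference itself.

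Genes that neurons induce with activity give a scale for Per1. Of 22 such genes, 18 were past the filter, 16 lay below 0, and the median difference was -0.58. None passed adjusted over all probe sets in limma, and 13 were lower at an unadjusted p under 0.05, against 1.22% of all probe sets. Fos, which had the smallest p of them, had mean signals of 2818 ± 665 against 1495 ± 165 with deprivation (SD, n = 4 each). Per1 at -0.28 lay above the median of this list and did not itself reach that unadjusted threshold. The list was drawn up with earlier results of these data known and gives no independent evidence, and Jun (0.32) and Fosl2 (0.14) in it lay above 0.

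**Figure D3:**
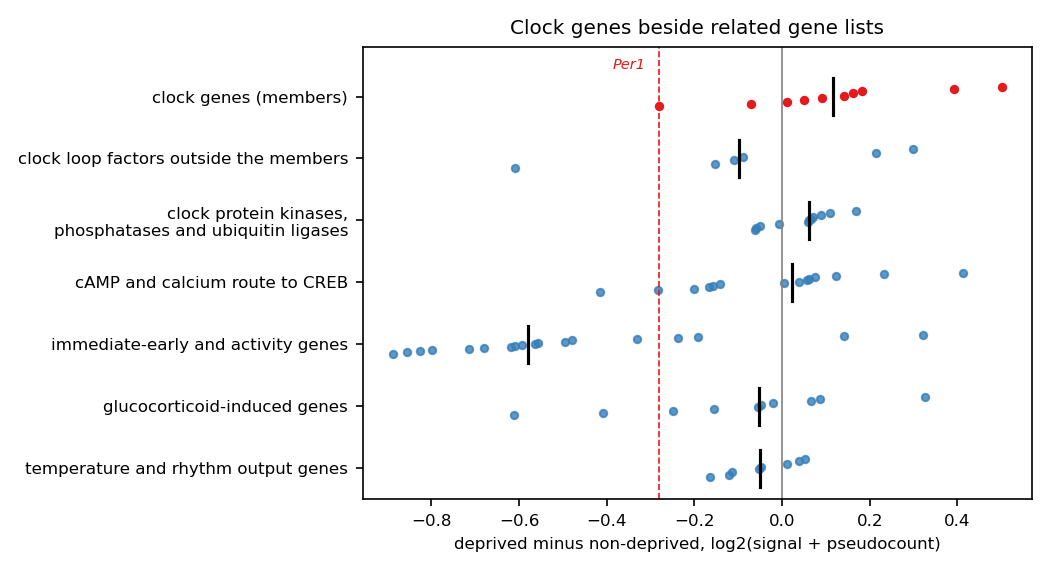
Deprived minus non-deprived difference in log2(signal + pseudocount) of the 10 clock genes (red) and of the genes of 6 related lists (blue), 1 point per gene, with a black bar at each median and a dashed line at Per1 (-0.28). The activity genes have a median of -0.58, whereas the medians of the other 5 related lists lie between -0.10 and 0.06.

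Of the clock loop factors outside the members, 6 of 12 were measured and none passed in either direction. Nfil3, a bZIP repressor that competes with DBP and TEF for D-boxes, had the smallest p. Mean signals were 247 ± 70.2 on the non-deprived and 154 ± 32.9 on the deprived side (SD, n = 4 each), with a log2 difference of -0.61 ± 0.24 (SE, limma unadjusted p = 0.0249, adjusted p = 0.995), lower in 3 of 4 pairs. Its probe set also carries the mark for shared probes. Nr1d1, the close relative of Nr1d2, had 0.30 ± 0.24, and Npas2, which can replace CLOCK, had 0.21 ± 0.22 and was higher in 4 of 4 pairs.

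Kinases, phosphatases and ubiquitin ligases that set the stability of clock proteins had a median of 0.06 over 11 measured of 18. None passed, 4 lay below and 7 above 0, and the 3 with the smallest p were Csnk1e, a kinase of PERIOD proteins (0.17 ± 0.16, SE), the ligase scaffold gene Cul1 (0.11 ± 0.13) and Gsk3a (0.09 ± 0.16).

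In the cAMP and calcium route to CREB, 14 of 26 genes were past the filter, none passed in either direction, and the median was 0.02. Crebbp, a coactivator of CREB and of BMAL1, had means of 938 ± 153 and 1268 ± 305 (SD, n = 4 each), with a log2 difference of 0.41 ± 0.19 (SE), higher in 4 of 4 pairs. Rasd1, a small G protein that tunes light input to the clock, had 170 (169.8) ± 22.9 and 124 ± 22.96, with a log2 difference of -0.42 ± 0.21 (SE), lower in 4 of 4 pairs. Prkaca, the catalytic subunit of protein kinase A, had -0.28 ± 0.18 (SE), also lower in 4 of 4 pairs. Of all probe sets, 8.95% were higher and 6.92% lower in 4 of 4 pairs.

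Per1 is also a glucocorticoid target. Of the glucocorticoid-induced genes, 10 of 11 were past the filter, none passed, 7 lay below 0 and the median was -0.05. Cdkn1a, a cell cycle inhibitor, had the smallest p at -0.61 ± 0.22 (SE), and Fkbp5, a sensitive glucocorticoid target, had 0.07. Temperature and rhythm output genes had a median of -0.05 over 8 measured of 10, none passed, and the cold-inducible Cirbp had -0.11 ± 0.13 (SE).

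The correlations between members are a description added after their values were seen. With the group means removed, Per2, Clock, Dbp and Nr1d2 correlated with each other at Pearson r of 0.61 to 0.87 over the 8 arrays. The highest value was that of Dbp with Nr1d2 (0.87), which was number 90 of 7452 in the order of all probe sets by their correlation with Dbp. Per1 correlated with Tef (0.75) and Dbp (0.67), and ran against Cry2 (-0.82). Per3 and Arntl, the 2 members with the highest differences, ran against each other (-0.73). The points share libraries and replicate numbers, so these values are a description. In the same order for each gene, Nr1d2 was number 198 for Per2, Per2 number 349 for Clock, and Dbp number 1268 for Clock.

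**Figure D4:**
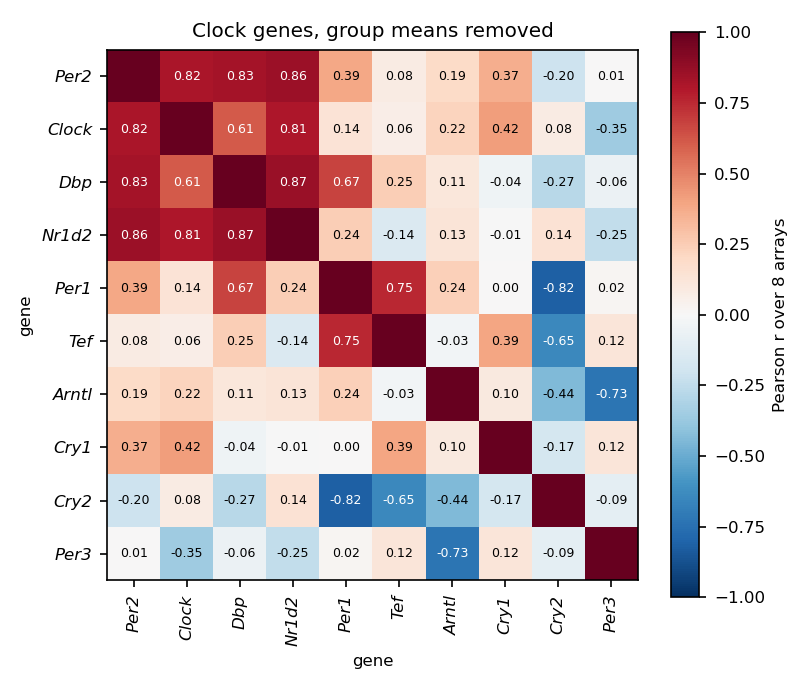
Pearson r between clock genes over 8 arrays, computed on log2(signal + pseudocount) after the mean of each group was removed, as a heat map from -1 (blue) to 1 (red). Per2, Clock, Dbp and Nr1d2 form a block of 0.61 to 0.87, and Per1 with Cry2 (-0.82) has the lowest value.

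The same replicate numbers were high in both hemispheres for some of these genes. For Nr1d2 and for Per2, the order of the 4 numbers was identical in non-deprived and deprived cortex, replicates 1 and 2 lying above 3 and 4. An identical order held for 2 of 10 clock genes and 9.97% of all probe sets. The mean over both hemispheres differed between numbers by up to 0.98 for Per2, 0.78 for Cry2 and 0.53 for Nr1d2 in log2 units. The Per2 difference between hemispheres was 0.01. In a limma F test of the replicate number, none of the 10 clock genes passed (smallest adjusted p 0.147, for Per2), against 1.26% of all probe sets. At an unadjusted p under 0.05 there were 3 of 10, Per2, Cry2 and Nr1d2, against 24.7% of all probe sets, a share close to that background. The labels do not say whether a number stands for a mouse, a day or an array run.

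The probe sets most like Per1 over the 8 arrays, group means included, were those of Gstm3 (Pearson r 0.94), Dld (0.92), Tubb2a (0.92), Zkscan6 (0.90) and Rnase4 (0.89). By rank the likeness was weaker for some, with a Spearman rho of 0.88, 0.55, 0.52, 0.86 and 0.62 in the same order. The differences of these probe sets between hemispheres ran from -0.44 for Rnase4 to -0.16 for Tubb2a. None of these is a clock gene or an activity gene of the lists. The most like Dbp were Odf2 (0.97), Otulinl (0.94), Ell (0.94), Mobp (0.92) and Map1s (0.92), with differences of 0.05 for Map1s to 0.24 for Odf2. Here the Spearman rho was 0.98, 0.98, 0.93, 0.86 and 0.95 in the same order. The probe sets of Gstm3, Tubb2a and Otulinl carry the mark for shared probes, so their signals may not be of these genes alone. All the probe sets named here are the extremes of 7453 by Pearson r over 8 arrays and are given as a description.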

How the data were processed

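Visual cortex of 8 samples, 4 non-deprived and 4 deprived, was measured on 1-colour short-oligonucleotide arrays. The authors deposited linear signal intensity for each probe set from MAS5, per the submitters' processing notes, whose version and settings no source used here gives. There were 12488 probe sets and 0 unused sample columns. Arrays were rescaled to the same 2% trimmed mean (500.3), which they already had, 66 controls were left out, and the analysis ran on log2(signal + 15.2), with the 10th percentile of all signals as pseudocount. Probe sets with a mean log2 value above the 40th percentile were kept (7453 of 12422). Genes were named from the platform annotation where it gives 1 symbol (10833 probe sets, 10817 updated through Entrez identifiers to GRCm38.p6 names).

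The comparison used lmFit and eBayes (with intensity trend, two-sided) of limma 3.58.1 under R 4.3.3. Single values had an exact permutation over 70 assignments, which ignores the pairs. An exact sign-flip test over the 16 sign patterns of the 4 pairs respects them. The number of arrays limits the precision. The fit was tested on simulated data. The brightest probe set stood for a gene in lists. Promoter sequences came from RefSeq, and plots from matplotlib 3.10.9 (Python 3.11.15). The text names all members, the 3 genes of each list with the smallest p (examples for some) and the 5 probe sets most like Per1 and Dbp. Fkbp5 was named after its values were seen. Members and lists were chosen with earlier results of these data known. The correlations, motifs, replicate-number tests and counts below 0 across settings were added after the values were seen.

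Replicate numbers come from the sample titles, whose meaning is not stated. After the group means were removed, same-numbered arrays correlated at 0.158 to 0.422 and others at -0.271 to 0.123. As each same-numbered pair exceeded 0.1, the numbers were taken to pair the arrays. The SEs and 95% intervals still come from the fit without the replicate block, except where the block is named. With the block the SE of Per2 went from 0.28 to 0.18 and that of Cry2 from 0.25 to 0.17. Alternatives were quantile and cyclic loess scaling, pseudocounts of 1 and 50, no filter, the replicate block, array weights, no trend, the actin or Gapdh ratio as a covariate, and each array left out.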

Additional observations from a re-analysis of the deposited data

Results flagged for a closer look

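Of 24 groups of 4 arrays examined, 1 had an array that stood apart from the other 3, where chance gives about 1 in 20 (1.2 here). It was the deprived group of a dim Cry1 probe set left out by the filter, in which replicate 3 had a signal of 3 against 0.5 to 0.9 in the others. The gap made up 0.83 of the range of log2 values. All these signals are far below the filter signal of 110 (109.96).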

How the results depend on the processing

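The count of clock gene probe sets called in limma was 0 in the main analysis and under all 18 alternatives. The same held for all probe sets, with 0 called throughout, so this count is not particular to the clock genes. The clock gene count at an unadjusted p under 0.05 (2, Arntl and Per3) was 1 in 11 of the alternatives and 2 in 7. Per3 was the gene lost with quantile or cyclic loess scaling, and Arntl with the actin ratio (limma unadjusted p = 0.0949). For all probe sets, the count at that p ran from 133 to 524 over the alternatives. With the replicate block the clock gene count was 2 of 10, while all probe sets at that p went from 199 to 524. The block changed no call, and with it Per1 had -0.28 ± 0.14 (SE, limma adjusted p = 0.705). Per1, Per3, Arntl and Dbp kept their direction under all 18. Of these settings, the replicate block, no filter and no trend leave each difference unchanged by construction, so they do not test direction. Leaving out 1 array gave -0.34 to -0.16 for Per1, and -0.53 to -0.30 for Per1 minus the median of the others. Other members changed sign under some settings. Per2 was -0.0328 with quantile scaling, -0.0565 with cyclic loess and -0.35 with the actin ratio, which also turned Clock (-0.0825), Cry1 (-0.0436) and 1 of its dim probe sets (-0.0576). The Gapdh ratio turned Cry2 (-0.12) and that probe set (-0.0354), and array weights turned Nr1d2 (0.00261). Without 1 array Per2 ran from -0.23 to 0.21, Cry1 from -0.0292 to 0.12, that dim probe set from -0.0624 to 0.45, Cry2 from -0.0144 to 0.32, Nr1d2 from -0.16 to 0.0204 and Tef from -0.0375 to 0.21. The cause of these changes was not tested. Each value that changed sign was smaller than its standard error, except Per2 with the actin ratio (SE 0.28). Signals near the 10th percentile carry little information, which limits the dim Cry1 probe sets.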
